A study of Mus musculus with 30 samples.

Results

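The interferon regulatory factors (IRFs) and the STAT protein STAT2 are the transcription factors through which interferon signals reach the genome. The members described here are 9 genes, Irf1, Irf2, Irf3, Irf4, Irf5, Irf7, Irf8, Irf9 and Stat2, of 50686 genes counted, chosen by gene name with earlier results of these data known, and 8 of the 9 were expressed at more than trace level. The question put to them was how Irf8, a repressor of osteoclast formation, moved in relation to Irf7, Irf9 and the STAT genes.

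RNA was sequenced from osteoclasts, the multinucleated cells that resorb bone, grown from macrophages that had been derived from C57BL/6J bone marrow. The mice were either wild type (WT) or Terc-/- (KO), a line without the telomerase RNA, and all cultures were given MCSF (25 ng/ml) and RANKL (100 ng/ml) in α-MEM with 10% fetal bovine serum. There were 10 groups of 3 libraries, 30 in all. Cultures stopped after 2 days came from WT donors of 6 and 20 months. Cultures kept until large multinucleated cells appeared came from WT donors of 1, 6 and 20 months and from KO donors of 1 and 6 months. A further KO group of 1 month and another of 6 months carry the number 519 in their titles, and a further WT group of 1 month carries a tag beginning with D1. The labels explain neither mark, and each of these 3 groups is kept apart as set 519 or set D1; set 519 holds no WT library and set D1 no KO library, so set and genotype cannot be told apart in comparisons across sets. The labels do not say whether replicates came from separate animals or cultures, nor whether donors were pooled, so p-values measure the spread between libraries, which may be technical.

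Total counts per library ran from 4269798 to 12987993 in set 519 and from 13182063 to 25147975 in the other 24 libraries. Terc had 0 counts in the 12 KO libraries, a limit of 0.0162 CPM (counts per 1e6 counts of the library total) from 3 counts, but also only 5 counts over the 18 WT libraries, 15 of which had 0, so Terc does not check the genotype labels. Set D1 stood apart from the other 27 libraries: Xist had 46411 counts in its 3 libraries against 35 in the other 27, and the Y-linked Ddx3y, Eif2s3y, Kdm5d and Uty had 0 counts in set D1. The label osteoclast was checked with 14 effector genes, among them Ctsk and Acp5, the cathepsin and the acid phosphatase of resorbing cells. Their summed level per library was 23400 to 27380 CPM in multinucleated WT cultures of 6 and 20 months, 30410 to 31700 CPM in 6-month KO of set 519 and 47850 to 50490 CPM in set D1, but 3882 to 4120 CPM in 1-month WT, 2143 to 2238 CPM in 1-month KO and 4143 to 4508 CPM in 6-month KO. These last 3 groups, labelled multinucleated, lay below the 2-day cultures, at 4689 to 5755 CPM. The 1-month KO of set 519 lay between, at 9129 to 10670 CPM. Summed macrophage markers (12 genes) were 8398 to 10500 CPM in the 2-day cultures and in multinucleated WT of 6 and 20 months, 18660 to 19750 CPM in set D1, 19100 to 19210 CPM in 6-month KO of set 519, 26370 to 31700 CPM in 6-month KO, 1-month KO of set 519 and 1-month WT, and 45620 to 49140 CPM in 1-month KO. The part of these and other markers in the results beside which they are given was not tested. In bulk RNA, fewer cells of a type and less RNA per cell cannot be told apart.

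IRF3 and IRF7 are activated downstream of nucleic acid sensors and switch on type I interferon genes. Secreted interferon then acts through its receptor and the Janus kinases on ISGF3, the complex to which IRF9 and STAT2 belong, which binds interferon-stimulated response elements (ISREs) in many genes, Irf7 among them. IRF1, induced by interferon gamma, activates an overlapping set of genes, and IRF2 competes with it for the same sites. IRF5 acts in Toll-like receptor signalling, and IRF4 is best known from lymphocytes. IRF8 belongs to the macrophage and dendritic cell program. In osteoclast precursors it restrains NFATc1, the master transcription factor of the osteoclast, and RANKL lowers its level through PRDM1 (Blimp1), which also represses Bcl6.

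Irf8 (ENSMUSG00000041515) lies on chromosome 8 at 120736358-120756694, plus strand, in GRCm38. Irf8 and Irf7 moved apart in some comparisons and together in others. The 250 bases before their RefSeq starts (GRCm38.p6) are therefore shown, at chr8:120736108-120736357 for Irf8 (plus strand) and at chr7:141266425-141266674 for Irf7 (minus strand). Shorter stretches upstream of the start are shown for Irf1 (chr11:53769902-53769951), Irf2 (chr8:46739495-46739544) and Stat2 (chr10:128270263-128270312), all on the plus strand, because they hold matches. Capitals mark each base in a match to 1 of 3 motifs, searched on both strands: the ISRE core, here GAAA and a second GAAA with any 2 bases between them, the gamma-activated site TTCNNNGAA, which STAT dimers bind, and the ETS/IRF composite element, here GGAA and GAAA with any 2 bases between them, bound by IRF8 or IRF4 together with PU.1.
Irf8: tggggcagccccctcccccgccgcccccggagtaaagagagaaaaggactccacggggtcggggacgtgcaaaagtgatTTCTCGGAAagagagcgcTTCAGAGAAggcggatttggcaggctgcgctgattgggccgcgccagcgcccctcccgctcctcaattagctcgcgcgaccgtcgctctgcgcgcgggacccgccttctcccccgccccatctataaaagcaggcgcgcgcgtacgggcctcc
Irf7: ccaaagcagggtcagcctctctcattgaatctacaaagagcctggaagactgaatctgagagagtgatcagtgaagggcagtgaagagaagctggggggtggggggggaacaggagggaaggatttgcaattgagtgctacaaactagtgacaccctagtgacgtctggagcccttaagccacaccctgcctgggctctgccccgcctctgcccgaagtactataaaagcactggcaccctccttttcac
Irf1: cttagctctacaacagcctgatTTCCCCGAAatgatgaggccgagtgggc
Irf2: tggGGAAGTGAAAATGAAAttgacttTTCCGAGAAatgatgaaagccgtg
Stat2: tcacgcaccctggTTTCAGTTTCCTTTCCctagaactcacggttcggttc
Irf8 held 2 matches to the gamma-activated site, TTCTCGGAA and TTCAGAGAA, whose first bases lie 171 and 153 bases before the start. Irf1 held 1 such match (TTCCCCGAA) and Irf2 held 1 (TTCCGAGAA). Irf2 and Stat2 each held 1 ISRE core and 1 composite element. In both genes these 2 matches overlap: in Irf2 the composite GGAAGTGAAA runs into GAAAATGAAA, and in Stat2, on the minus strand, TTTCAGTTTC runs into TTTCCTTTCC. No match was found for Irf3, Irf4, Irf5, Irf7 and Irf9. All 9 genes had a window of 300 bases in the RefSeq table, 250 before and 50 after the start, 12 windows in all. Of 32851 such windows, 3.44% held the ISRE core, 8.30% the gamma-activated site and 2.72% the composite element. A match describes letters only, and the absence of one says nothing beyond this window.

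Irf8 was highest in 1-month KO cultures. Levels here are CPM scaled by TMM, edgeR's normalization factors. The 3 libraries of 1-month KO held 113.5, 104.3 and 112.2 CPM, and those of 1-month KO in set 519 held 99.54, 85.01 and 88.37 CPM. Next came 1-month WT with 66.42, 65.51 and 58.69 CPM and 6-month KO with 62.88, 66.95 and 59.03 CPM, whose libraries overlap. Set 519 KO of 6 months followed with 45.76, 45.49 and 45.13 CPM, then set D1 with 41.59, 39.74 and 42.83 CPM. The WT cultures of older donors were lowest: 32.28, 31.48 and 32.24 CPM at 2 days and 6 months, 29.79, 31.46 and 29.97 CPM at 2 days and 20 months, 26.22, 26.00 and 24.84 CPM in multinucleated 6-month cultures and 24.04, 23.69 and 25.79 CPM in multinucleated 20-month cultures. The last 2 groups overlap. From highest to lowest group mean, Irf8 spanned 4.49-fold, from 110.0 ± 5.0 to 24.5 ± 1.13 CPM (mean ± SD, n = 3).

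Irf7 (ENSMUSG00000025498, chromosome 7, 141262706-141266481, minus strand), the amplifier of type I interferon production, spanned the widest range of the 8 members above trace level, 17.5-fold. It stood at 227.8, 266.6 and 287.9 CPM in 6-month KO, at 246.6, 274.9 and 185.5 CPM in 1-month WT and at 187.8, 182.3 and 231.7 CPM in 1-month KO, and these 3 groups overlap in a row. All other groups were lower than every one of these libraries. Set 519 KO held 90.98, 92.20 and 88.13 CPM at 6 months and 60.40, 47.18 and 42.55 CPM at 1 month. WT of 20 months held 48.22, 58.92 and 63.84 CPM at 2 days and 64.31, 43.84 and 45.64 CPM in multinucleated cultures. WT of 6 months held 34.71, 32.85 and 30.92 CPM at 2 days and 22.42, 20.76 and 28.42 CPM in multinucleated cultures, and set D1 was lowest with 13.46, 15.49 and 15.89 CPM.

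Irf9 (ENSMUSG00000002325, chromosome 14, 55603571-55610030, plus strand) and Stat2 (ENSMUSG00000040033, chromosome 10, 128270559-128292849, plus strand) encode the ISGF3 subunits. Irf9 was at 74.7 ± 3.41 CPM in 6-month KO, 72.6 ± 3.38 CPM in 1-month WT and 71.9 ± 4.14 CPM in 1-month KO, 3 groups whose libraries overlap, and at 53.5 ± 9.23 and 47.0 ± 3.10 CPM in 1-month and 6-month KO of set 519. The older WT groups ran from 39.6 ± 2.01 CPM (20 months, 2 days) down to 28.0 ± 1.15 CPM (6 months, multinucleated), and set D1 had 24.7 ± 0.160 CPM. Stat2 was at 153.4 ± 11.3 CPM in 6-month KO, 140.7 ± 13.6 CPM in 1-month KO, 109.1 ± 13.98 CPM in 1-month WT, 99.9 ± 5.85 CPM in 1-month KO of set 519 and 83.3 ± 3.14 CPM in 6-month KO of set 519. Its other groups lay between 49.7 ± 3.09 CPM (WT, 20 months, 2 days) and 28.3 ± 3.02 CPM (WT, 6 months, multinucleated).

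The other members varied less. Irf5 (ENSMUSG00000029771, chromosome 6, 29526625-29541871, plus strand) ran from 201.4 ± 13.8 CPM in 1-month KO to 72.3 ± 2.82 CPM in set D1; 411 bases of its exons (14.1%) overlap those of the antisense gene Tnpo3, so its counts can hold reads of that gene, since no use of strand is recorded. Irf1 (ENSMUSG00000018899, chromosome 11, 53770014-53778374, plus strand) ran from 54.6 ± 0.728 CPM in 6-month KO to 26.8 ± 3.47 CPM in 20-month WT at 2 days. Irf2 (ENSMUSG00000031627, chromosome 8, 46739732-46847458, plus strand) ran from 55.9 ± 1.16 CPM in 1-month KO of set 519 to 31.2 ± 0.425 CPM in set D1. Irf3 (ENSMUSG00000003184, chromosome 7, 44997648-45002848, plus strand), the factor held ready in resting cells, changed least, from 48.7 ± 2.67 CPM in 1-month WT to 32.3 ± 1.67 CPM in 20-month WT at 2 days. Its 10 groups form an order in which each overlaps the next. Irf4 (ENSMUSG00000021356, chromosome 13, 30749226-30766927, plus strand) had 0 to 15 counts per library and was called in no comparison; its 2 libraries at 0, both of set 519, allow up to 0.703 and 0.494 CPM. Exons of Irf1, Irf3, Irf7 and Irf9 overlap another gene over 135, 88, 45 and 123 bases. Those of Irf2, Irf4, Irf8 and Stat2 overlap none.

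**Figure D1:**
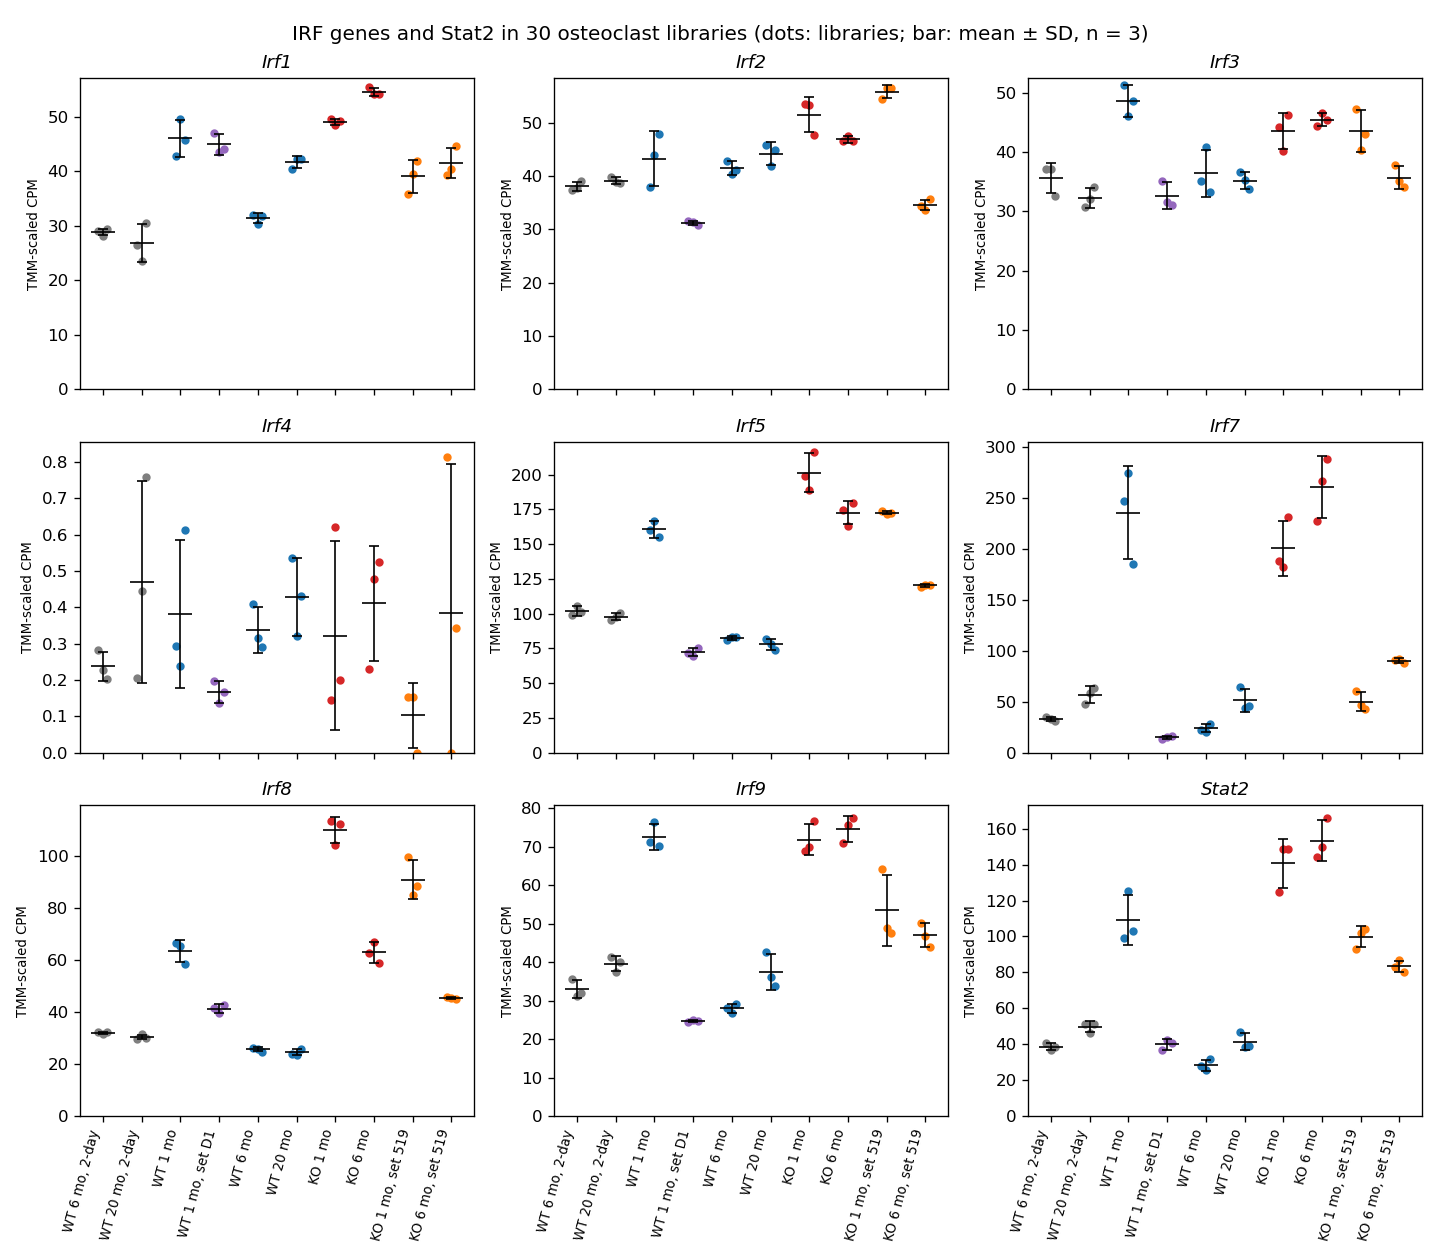
TMM-scaled CPM of the 9 members (1 panel each, linear axis from 0) in the 10 groups, with a dot per library and a black bar for the mean ± SD (n = 3); grey is 2-day WT, blue multinucleated WT, purple set D1, red KO and orange set 519 KO. Irf8 is highest in 1-month KO at 110.0 CPM, whereas Irf7 is highest in 6-month KO at 260.7 CPM and lowest in set D1 at 14.9 CPM.

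At 6 months, KO cultures held more of 8 of the 9 members than WT cultures, in a comparison in which 60.0% of all 15310 genes tested were called (adjusted p under 0.05 in edgeR's quasi-likelihood test, Benjamini-Hochberg). Irf7 was 10.9-fold higher (log2 3.45 ± 0.15, standard error, adjusted p = 2.9e-20), and none of its KO libraries came near the WT range of 20.76 to 28.42 CPM. Stat2 was 5.42-fold higher (log2 2.44 ± 0.09, adjusted p = 1.2e-21), Irf9 2.66-fold (log2 1.41 ± 0.08, adjusted p = 1.6e-16), Irf8 2.45-fold (log2 1.29 ± 0.06, adjusted p = 1.9e-18) and Irf5 2.09-fold (log2 1.07 ± 0.05, adjusted p = 2.8e-18). Irf1 rose 1.74-fold, Irf3 1.25-fold and Irf2 1.13-fold. The call for Irf2 (adjusted p = 0.015) was lost with upper-quartile scaling (0.073) and with counts thinned to the lowest library total (0.18). The members' median log2 difference was 1.07, against -0.02 over all genes.

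The genes around the members moved with them at 6 months. Of 36 type I interferon-stimulated genes, 35 were higher and 1 lower (median log2 2.38), where 30.5% of all genes were called higher; Ifi44 went from 2.91 ± 0.497 CPM in WT to 32.8 ± 2.27 CPM in KO, and Isg15, a ubiquitin-like modifier, from 6.61 ± 1.06 to 74.1 ± 16.7 CPM. Of 17 interferon gamma and IRF1 target genes 15 were higher, led by the GTPase genes Gbp6 (log2 2.54 ± 0.25) and Igtp (log2 2.26 ± 0.12). Of 8 receptor and Janus kinase genes tested 7 were higher, among them the interferon receptor subunit Ifnar2 (log2 0.73 ± 0.06) and the receptor chain Il10rb (log2 0.48 ± 0.06). Of 14 sensor and adaptor genes 11 were higher and 1 lower, with the RNA sensor gene Ddx58 (RIG-I) at log2 1.79 ± 0.10 and the kinase gene Ikbke at log2 1.49 ± 0.06. The feedback genes Usp18, which shuts off the receptor, and Socs3 rose by log2 3.08 ± 0.16 and 2.41 ± 0.11. All 6 other STAT genes were called higher. The markers moved too: the effector sum was 4143 to 4508 CPM in KO and 23400 to 25190 CPM in WT, the macrophage sum 26370 to 27030 against 10330 to 10500 CPM, and the dendritic cell sum (10 genes, Siglech and Cd209a at 0 counts in KO) 403.7 to 429.1 against 103.0 to 118.7 CPM. Of the 6 dendritic cell markers tested, however, 2 were higher and 1 lower, with a median log2 of -0.75. Bst2 (111654 counts over 30 libraries), also an interferon-stimulated gene, and Itgax (38097) hold most counts of that list. Of 8 stromal markers 7 were lower (715.1 to 776.1 against 1193 to 1568 CPM), and both neutrophil markers tested were higher. The neutrophil list summed to 28.45 to 38.96 against 2.518 to 3.328 CPM, with S100a9, Elane, Ly6g and Ngp at 0 counts in KO.

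The 6-month KO of set 519, set beside the same WT libraries, gave smaller differences in the same direction for 6 members, beside an effector sum above that of WT. There 7 of 9 members were called, where 51.6% of all genes were. Irf7 was 3.77-fold higher (log2 1.92 ± 0.15, adjusted p = 8.6e-13), Stat2 2.93-fold (log2 1.55 ± 0.10, adjusted p = 2.5e-15), Irf8 1.77-fold (log2 0.82 ± 0.07, adjusted p = 5.8e-12), Irf9 1.68-fold, Irf5 1.46-fold and Irf1 1.33-fold. Irf2 was 1.20-fold lower (adjusted p = 0.0025), against its small rise in the other KO group. The effector sum was 30410 to 31700 CPM here; Ctsk was at 5784 ± 122.7 CPM and did not pass the test (adjusted p = 0.075), and Acp5 was higher by log2 0.63 ± 0.08. Macrophage markers were again higher, at 19100 to 19210 CPM, and 7 of 8 stromal markers lower, at 416.6 to 446.3 CPM. Of the 36 interferon-stimulated genes 31 were higher and none lower, where 25.7% of all genes were called higher, with Oas3 at log2 1.84 ± 0.12 and Oasl1 at 1.63 ± 0.21. Both comparisons share the 6-month WT libraries, so they are not independent of each other.

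At 1 month the members called were about as frequent as among all genes. Against 1-month WT, 1-month KO had 4 of 9 members called, all higher, where 41.4% of all genes were called. Irf8 led with a 1.73-fold rise (log2 0.79 ± 0.06, adjusted p = 4.6e-13); Stat2 was 1.29-fold (adjusted p = 0.00049), Irf5 1.26-fold (adjusted p = 3.7e-06) and Irf2 1.19-fold higher (adjusted p = 0.0015). The Irf2 call was lost when only the compared groups were fitted (adjusted p = 0.085) and with thinned counts (0.27). Irf7 was not called, at log2 -0.23 ± 0.12 (adjusted p = 0.14), nor was Irf9 at -0.01 ± 0.08 (adjusted p = 0.91). Without WT replicate 4, the lowest of its group, Irf7 was called lower in KO (adjusted p = 0.016), and it was also called lower when no filter on low counts was used (adjusted p = 0.0067). Of the interferon-stimulated genes 10 rose and 2 fell. Both groups stood low in effector genes (Ctsk 72.6 ± 14.5 CPM in KO, 559.1 ± 8.61 CPM in WT), and macrophage markers summed to 45620 to 49140 CPM in KO and 27620 to 30320 CPM in WT.

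In 1-month KO of set 519 Irf8 was higher and Irf7 lower than in 1-month WT. In all 5 of 9 members were called, 2 higher and 3 lower, a share near the 57.0% of all genes called. Irf8 was 1.43-fold higher (log2 0.51 ± 0.06, adjusted p = 1.3e-08), with no overlap of libraries, and Irf2 was 1.29-fold higher (adjusted p = 2.2e-05). Irf7 was 4.69-fold lower (log2 -2.23 ± 0.15, adjusted p = 5.9e-15), Irf9 1.36-fold lower (log2 -0.44 ± 0.09, adjusted p = 4e-05) and Irf1 1.18-fold lower (adjusted p = 0.0068). The Irf1 call was lost with upper-quartile scaling (adjusted p = 0.094), with only the compared groups (0.075), with thinned counts (0.44) and without WT replicate 3 (0.080). Irf5, not called here (adjusted p = 0.094), was called higher with DESeq2 (0.0042), with both other scalings (0.0076 and 0.0018) and without WT replicate 3 (0.037); Irf3 was called lower without set 519 replicate 2 (0.022). Stat2 was at log2 -0.13 ± 0.09 (adjusted p = 0.22). Of the interferon-stimulated genes 33 fell and 1 rose, where 29.8% of all genes were called lower; the chemokine gene Cxcl10 went from 79.6 ± 7.53 CPM in WT to 6.67 ± 1.64 CPM. Among regulators related to Irf8, Bcl6 rose by log2 1.25 ± 0.08 and Prdm1 fell by 0.45 on the log2 scale. Effector genes were higher here (9129 to 10670 CPM against 3882 to 4120 CPM), and macrophage sums overlapped (26730 to 31700 and 27620 to 30320 CPM), although 7 of the 12 macrophage markers were lower and 2 higher (median log2 -0.49). Both neutrophil markers tested were lower (summed 4.365 to 7.705 against 23.14 to 31.5 CPM).

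The direction seen at 1 month for Irf7 and Irf9 depended on which WT group was the reference. Set D1, the other 1-month WT group, had 7 of 9 members called against it, all lower, a share near the 74.5% of all genes called: Irf7 was 15.8-fold lower (log2 -3.98 ± 0.15, adjusted p = 8.8e-22), Irf9 2.94-fold, Stat2 2.74-fold, Irf5 2.22-fold and Irf8 1.53-fold lower (log2 -0.62 ± 0.06). Set D1 had 35 of 36 interferon-stimulated genes lower and all 14 effector genes higher, with Ctsk at 11510 ± 101.5 CPM. Macrophage sums were 18660 to 19750 CPM in set D1 and 27620 to 30320 CPM in the other WT group, and stromal sums 3420 to 3734 and 433.7 to 472.3 CPM. Set beside set D1, 1-month KO of set 519 is higher in Irf8 (91.0 against 41.4 CPM), Irf7 (50.04 against 14.9 CPM), Irf9 (53.5 against 24.7 CPM) and Stat2 (99.9 against 39.9 CPM), with no overlap of libraries for any of the 4. This pairing was added after the values were seen, carries no test, and differs in set and in the sex-linked genes above. The direction of Irf7 and Irf9 in 1-month KO of set 519 thus differs between the 2 WT groups, and that of Irf8 does not. The unprefixed 1-month KO was also above set D1 in Irf7 (200.6 against 14.9 CPM) and Irf9 (71.9 against 24.7 CPM). The same held for Stat2 (140.7 against 39.9 CPM) and Irf8 (110.0 against 41.4 CPM), with no overlap of libraries and again no test. Against the unprefixed 1-month WT, Irf7 and Irf9 were not called in that KO group.

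**Figure D2:**
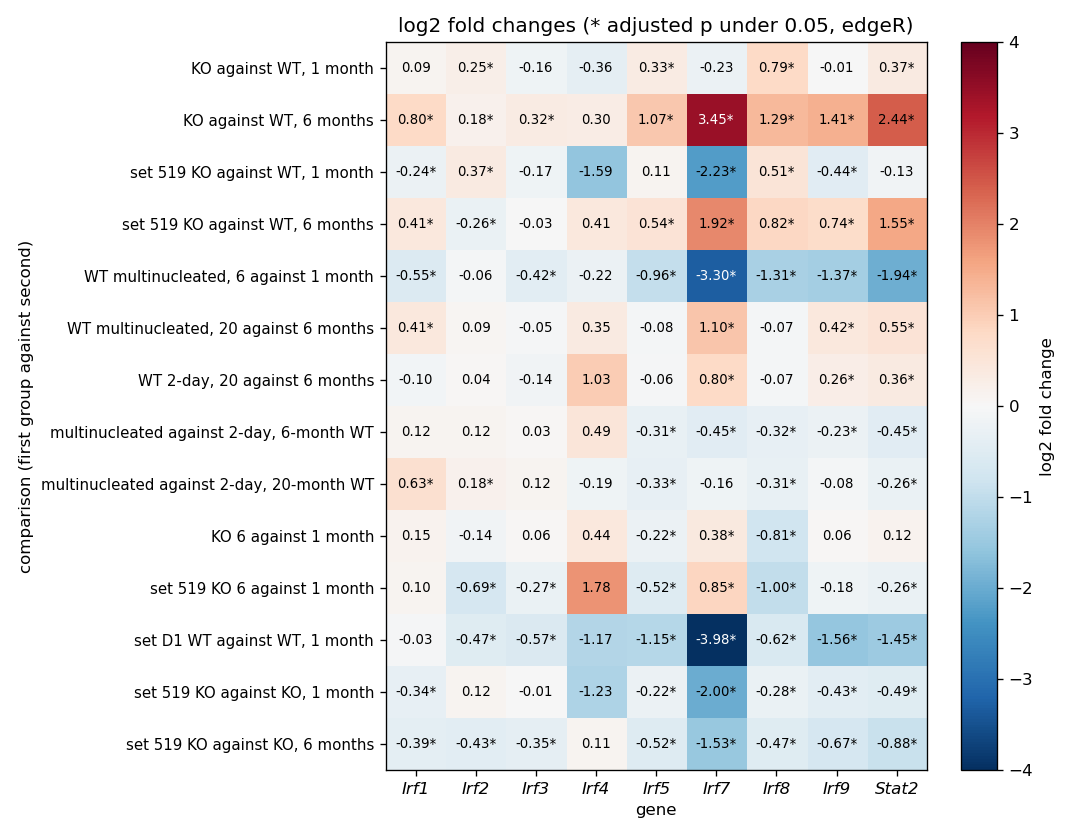
log2 fold changes of the 9 members (columns) in 14 comparisons (rows, first group against second), on a scale from -4 (blue) to 4 (red), with an asterisk where the adjusted p was under 0.05 in edgeR. In the row for 1-month KO of set 519 against WT, Irf8 is at 0.51 and Irf7 at -2.23; Irf4 carries no asterisk in any row.

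Between 1-month and 6-month KO donors, Irf8 fell while Irf7 rose, in both sets. The sets share no library, but the labels do not say whether they share donors or cultures. In the unprefixed KO groups Irf8 fell from 110.0 ± 5.0 to 63.0 ± 3.96 CPM (log2 -0.81 ± 0.06, adjusted p = 2.4e-13) and Irf7 rose 1.30-fold (log2 0.38 ± 0.12, adjusted p = 0.016). In set 519 Irf8 fell from 91.0 ± 7.61 to 45.5 ± 0.316 CPM (log2 -0.996 ± 0.07, adjusted p = 6e-14) and Irf7 rose 1.80-fold, from 50.04 ± 9.27 to 90.4 ± 2.09 CPM (log2 0.85 ± 0.15, adjusted p = 3.7e-05). Irf8 libraries of the 2 ages did not overlap in either set. Irf7 libraries did not overlap in set 519, but in the unprefixed groups they did, and that call was lost with DESeq2 (adjusted p = 0.071) and without KO 1-month replicate 1 (0.063), 1-month replicate 2 (0.067) or 6-month replicate 3 (0.095). Irf5 fell in both sets (log2 -0.22 ± 0.05 and -0.52 ± 0.06).

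In all, 3 of 9 members were called in the unprefixed KO groups, where 37.5% of all genes were. Irf2, not called there (adjusted p = 0.085), was called lower without 1-month replicate 4 (0.018) and with DESeq2's size factors (0.045). In set 519, 6 of 9 members were called, where 32.5% were. The further calls in set 519 were falls of Irf2 (log2 -0.69 ± 0.07), Irf3 (log2 -0.27 ± 0.09) and Stat2 (log2 -0.26 ± 0.09). The Irf3 call was lost without 1-month replicate 2 (adjusted p = 0.10) or 6-month replicate 4 (0.083), and the Stat2 call without 1-month replicate 3 (0.10) or 4 (0.080) or 6-month replicate 2 (0.057) or 4 (0.098). Irf9 (log2 -0.18 ± 0.09) was called lower with DESeq2 and both other scalings (0.034 to 0.041). Of the genes called in set 519, 59.2% were higher, and 48.0% with DESeq2's size factors. Of the 36 interferon-stimulated genes 9 rose and 3 fell in the unprefixed groups, and 5 rose and 2 fell in set 519; Ifi44 rose in both (log2 1.13 ± 0.14 and 1.62 ± 0.28). Of 14 effector genes 13 rose and 1 fell in the unprefixed groups, and 14 rose in set 519: Ctsk rose by log2 3.27 ± 0.09 and 2.03 ± 0.08, Nfatc1 by 1.53 ± 0.08 and 0.89 ± 0.08, and Prdm1 by 1.97 ± 0.10 and 1.00 ± 0.10. Macrophage sums were 45620 to 49140 CPM at 1 month and 26370 to 27030 CPM at 6 months in the unprefixed groups, and 26730 to 31700 CPM and 19100 to 19210 CPM in set 519.

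In WT the change from 1 to 6 months went down for 7 of 9 members, where 63.6% of all genes were called. Irf7 was 9.84-fold lower at 6 months (log2 -3.30 ± 0.15, adjusted p = 8.9e-20), Stat2 3.85-fold, Irf9 2.59-fold, Irf8 2.47-fold (log2 -1.31 ± 0.06, adjusted p = 1.4e-18), Irf5 1.95-fold, Irf1 1.47-fold and Irf3 1.34-fold. Irf2 (adjusted p = 0.39) was called lower without 1-month replicate 1 (0.031). Of the interferon-stimulated genes 35 fell. The 1-month WT is the group whose effector genes lay below the 2-day cultures, and Ctsk was 11.6-fold higher at 6 months. Effector sums were 3882 to 4120 CPM at 1 month and 23400 to 25190 CPM at 6 months, and macrophage sums 27620 to 30320 and 10330 to 10500 CPM, with 9 of 12 macrophage markers lower at 6 months and 1 higher. Stromal sums were 433.7 to 472.3 and 1193 to 1568 CPM, and neutrophil sums 23.14 to 31.5 and 2.518 to 3.328 CPM. The direction for some of the 7 members depended on the 1-month WT reference. Multinucleated 6-month WT was above set D1 in Irf7 (23.9 against 14.9 CPM), Irf9 (28.0 against 24.7) and Irf5 (82.5 against 72.3). It was below set D1 in Irf8 (25.7 against 41.4), Stat2 (28.3 against 39.9) and Irf1 (31.35 against 44.9). Irf3 libraries overlapped, and those of the other genes named did not. This pairing carries no test and differs in set. With the unprefixed 1-month WT, the KO and WT changes from 1 to 6 months differed for 7 of 9 members in the test of the difference, where 48.6% of all genes differed. This test was not run with set D1 as the 1-month WT, so the directions below hold for the unprefixed reference alone. The KO change was the higher one by log2 3.68 ± 0.19 for Irf7, 2.07 ± 0.12 for Stat2, 1.43 ± 0.11 for Irf9, 0.74 ± 0.07 for Irf5, 0.71 ± 0.10 for Irf1, 0.50 ± 0.09 for Irf8 and 0.48 ± 0.10 for Irf3. Between the 2 KO sets the age changes differed for 4 of 9 members, where 14.9% of all genes differed, and neither Irf7 (adjusted p = 0.11) nor Irf8 (0.16) was among them; Irf7 was called there without set 519 1-month replicate 2 (0.040) and with no filter on low counts (0.00032).

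Between 6 and 20 months, WT cultures gained Irf7, Irf9 and Stat2 at both stages of culture, with the 2-day calls of Irf9 and Stat2 less secure, and Irf8 was not called at either. The 2 stages share no library. In multinucleated cultures 4 of 9 members were called, all higher, where 14.3% of all genes were called: Irf7 was 2.14-fold (log2 1.10 ± 0.15, adjusted p = 1.7e-06), Stat2 1.47-fold (log2 0.55 ± 0.09, adjusted p = 7.6e-05), Irf9 1.34-fold (log2 0.42 ± 0.09, adjusted p = 0.00065) and Irf1 1.33-fold higher (log2 0.41 ± 0.07, adjusted p = 7.3e-05). No 20-month library overlapped the 6-month libraries in these 4 genes. In 2-day cultures 3 of 9 were called, all higher, where 18.8% of all genes were: Irf7 was 1.74-fold (log2 0.80 ± 0.14, adjusted p = 9.8e-05), Stat2 1.29-fold (log2 0.36 ± 0.09, adjusted p = 0.0049) and Irf9 1.20-fold higher (log2 0.26 ± 0.08, adjusted p = 0.027). The Irf9 call at 2 days was lost without 6-month replicate 2 (adjusted p = 0.096) or 4 (0.079), or without 20-month replicate 1 (0.078) or 3 (0.057), and with the replicate block (0.051). With thinned counts the 2-day calls of Irf9 (0.16) and Stat2 (0.058) were lost. Irf8 was at log2 -0.07 ± 0.07 in both comparisons (adjusted p = 0.60 and 0.49); its libraries overlapped between ages in multinucleated cultures and did not at 2 days.

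Interferon-stimulated genes moved with Irf7 at both stages. Of 36 interferon-stimulated genes 25 rose and none fell in multinucleated cultures (median log2 0.55), where 7.39% of all genes were called higher, and 22 rose and none fell at 2 days (median log2 0.45), where 7.48% were. In multinucleated cultures Ifi44 rose from 2.91 ± 0.497 to 7.53 ± 2.21 CPM and Oasl1 from 4.38 ± 0.182 to 9.45 ± 2.22 CPM. At 2 days Oasl2 rose from 52.7 ± 2.75 to 95.7 ± 10.2 CPM and Ly6e from 198.0 ± 13.8 to 340.9 ± 37.3 CPM. Ddx58 rose at both (log2 0.58 ± 0.10 and 0.54 ± 0.10), and so did Usp18 (log2 0.76 ± 0.19 and 0.72 ± 0.17). Of 7 MHC class II presentation genes 4 rose at each stage. Effector sums did not overlap between ages at either stage, at 23400 to 25190 and 25680 to 27380 CPM in multinucleated cultures and 4689 to 5268 and 5649 to 5755 CPM at 2 days, where 6 of 14 effector genes were higher. Macrophage sums of multinucleated cultures were lower at 20 months (9001 to 9363 against 10330 to 10500 CPM). Stromal markers moved in opposite directions at the 2 stages, from 1193 to 1568 CPM up to 2417 to 2783 CPM in multinucleated cultures and from 3440 to 3749 CPM down to 2826 to 3004 CPM at 2 days. Of the genes called in multinucleated cultures 51.7% were higher, and 62.0% with upper-quartile scaling. Irf1 rose more with age in multinucleated than in 2-day cultures (difference log2 0.51 ± 0.10, adjusted p = 0.00051); it was the 1 of 9 members in that test, where 12.4% of all genes were called.

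Multinucleated WT cultures of both ages held less Irf8 and Irf5 than 2-day cultures. Irf8 was 1.25-fold lower at 6 months (log2 -0.32 ± 0.07, adjusted p = 0.00015) and 1.24-fold lower at 20 months (log2 -0.31 ± 0.07, adjusted p = 0.00024), and its libraries did not overlap between stages. Irf5 was 1.24-fold and 1.26-fold lower. Stat2 was 1.37-fold lower at 6 months (adjusted p = 0.00017) and 1.20-fold lower at 20 months (adjusted p = 0.017). At 6 months 5 of 9 members were called, where 50.8% of all genes were, the others being Irf7 (log2 -0.45 ± 0.15, adjusted p = 0.012) and Irf9 (log2 -0.23 ± 0.09, adjusted p = 0.024). Leaving out 2-day replicate 1 or multinucleated replicate 3 lost both of these calls (adjusted p = 0.051 and 0.16, and 0.087 and 0.10) and took the count to 3, and leaving out multinucleated replicate 2 lost Irf9 (0.054).

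At 20 months 5 of 9 were called, where 52.3% of all genes were: besides Irf5, Irf8 and Stat2, Irf1 was 1.55-fold higher (adjusted p = 3.9e-09) and Irf2 1.13-fold higher (adjusted p = 0.021) in multinucleated cultures. The count fell to 3 without 2-day replicate 3 or multinucleated replicate 4. The Irf2 call was lost with DESeq2 (0.051), with thinned counts (0.18) and without 2-day replicates 2 (0.058) or 3 (0.064). It was also lost without multinucleated replicates 1 (0.092) or 4 (0.062). The Stat2 call was lost with thinned counts (0.12) and without 2-day replicate 3 (0.061) or multinucleated replicates 2 (0.089) or 4 (0.085). Irf7 was called lower without multinucleated replicate 1 (0.040), and Irf3 was called higher with thinned counts (0.014). Over the same step Nfatc1 rose by log2 0.57 ± 0.07 and 0.58 ± 0.07 and Prdm1 by 0.79 ± 0.08 and 0.92 ± 0.08. Bcl6 fell by 0.41 and 0.21 on the log2 scale. Ctsk rose 5.72-fold and 4.83-fold. Of the interferon-stimulated genes 22 fell and 1 rose at 6 months, and 23 fell and 1 rose at 20 months. Stromal sums were lower in multinucleated than in 2-day cultures (1193 to 1568 against 3440 to 3749 CPM at 6 months, and 2417 to 2783 against 2826 to 3004 CPM at 20 months). The member counts at both ages lie near the share of all genes called.

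Between sets, the KO libraries of set 519 were lower in most members than the unprefixed KO libraries of the same age. At 1 month 6 of 9 were called, all lower, where 50.0% of all genes were called, and at 6 months 8 of 9, all lower, where 49.1% were. Irf7 was 3.996-fold and 2.89-fold lower (log2 -2.00 ± 0.15 and -1.53 ± 0.13), Stat2 1.41-fold and 1.85-fold, Irf9 1.35-fold and 1.59-fold, and Irf8 1.21-fold and 1.39-fold lower. Fitted with the compared groups alone, the 1-month calls of Irf8 (adjusted p = 0.053) and Irf5 (0.10) were lost, and Irf2 was called higher with both other scalings (0.043 and 0.019). Effector genes were higher in set 519 at both ages, 13 of 14 and 14 of 14, and macrophage markers lower, 10 of 12 and 9 of 12 (26730 to 31700 against 45620 to 49140 CPM at 1 month, and 19100 to 19210 against 26370 to 27030 CPM at 6 months). Neutrophil sums were 4.365 to 7.705 against 73.87 to 77.99 CPM and 5.017 to 5.813 against 28.45 to 38.96 CPM. Of the neutrophil markers, S100a9 and Ly6g had 0 counts in each of these KO groups.

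Over the 10 group means of log2 CPM, the r of Irf8 was higher with Adgre1, Bcl6 and Stat2 than with Irf7, but not within groups. The points share cell origin, culture and library preparation and are given as a description. Pearson's r of Irf8 was 0.61 with Irf7 (Spearman's rho 0.50), 0.76 with Irf9 (rho 0.71) and 0.88 with Stat2 (rho 0.78). Without the 2 groups farthest from the median of Irf8, r was 0.72, 0.76 and 0.89. Among other STAT genes, r was 0.90 with Stat6, 0.76 with Stat5b, 0.59 with Stat4, 0.26 with Stat5a and 0.25 with Stat3. With Irf5 it was 0.90, with Bcl6 0.83 and with the macrophage receptor gene Adgre1 0.90; with Nfatc1 and Prdm1 it was -0.90 and -0.90, and with Ctsk -0.72. Irf7 and Irf9, by contrast, had r = 0.96 with each other (rho 0.93), and Irf9 and Stat2 0.95. Within groups, deviations of the 30 libraries from their group means gave r = 0.70 for Irf7 with Irf9, 0.53 for Irf7 with Stat2 and 0.30 for Irf7 with Irf8. By the same measure Irf8 had r = 0.26 with Irf9, -0.36 with Stat2, -0.03 with Adgre1, -0.08 with Bcl6, -0.08 with Nfatc1 and -0.10 with Prdm1. In the 7 groups outside sets 519 and D1 alone, r of Irf8 was 0.87 with Irf7 and 0.90 with Irf9, so the looser relation over 10 groups rests on the 3 groups of these sets.

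**Figure D3:**
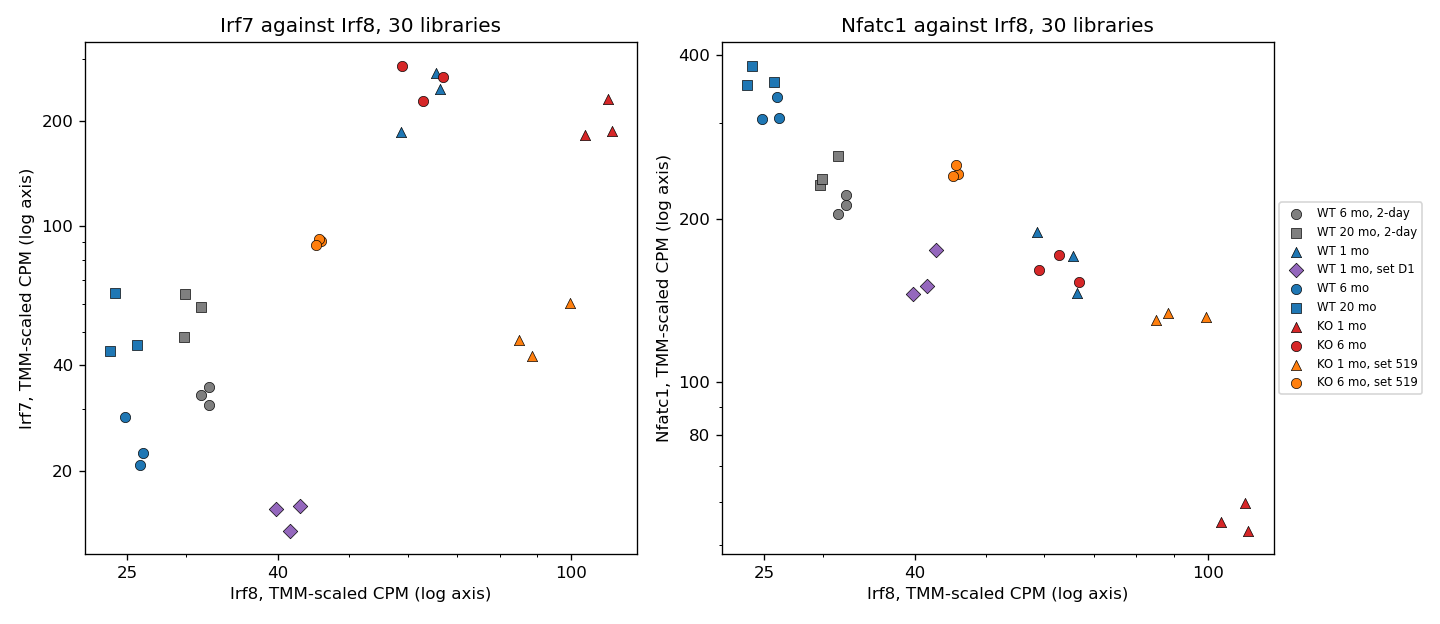
Irf7 (left) and Nfatc1 (right) against Irf8 in 30 libraries, all in TMM-scaled CPM on log axes; colour and shape give the group, with colours as for the member levels, triangles for 1 month, circles for 6 months, squares for 20 months and diamonds for set D1. Set 519 KO of 1 month (orange triangles) has high Irf8 (85.01 to 99.54 CPM) beside Irf7 of 42.55 to 60.40 CPM, and set D1 has the lowest Irf7 (13.46 to 15.89 CPM) beside Irf8 of 39.74 to 42.83 CPM.

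The ratio of Irf7 to Irf8, each in CPM per kilobase of exon, puts the balance of these 2 factors in 1 value. It was 7.77 ± 1.21 in 6-month KO and 6.89 ± 0.969 in 1-month WT, 3.41 ± 0.400 in 1-month KO, 3.72 ± 0.0691 and 1.02 ± 0.118 in 6-month and 1-month KO of set 519, and 0.675 ± 0.0638 in set D1. In WT it was 1.92 ± 0.112 at 6 months and 3.50 ± 0.478 at 20 months in 2-day cultures, and 1.74 ± 0.347 and 3.92 ± 0.936 in multinucleated cultures, with no overlap between the ages at either stage. Per kilobase, Irf8 itself lay between 3.47 and 15.6 CPM, Irf7 between 3.96 and 69.1 CPM and Irf5 between 24.9 and 69.3 CPM (group means), so that Irf5 was above Irf8 in every group, by 4.24-fold in set D1 to 7.82-fold in 20-month WT at 2 days.

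Among 11074 genes with a mean of at least 5 CPM in a group, those whose group means lay closest to Irf7 were Ddx58 (r = 0.99), Oasl2, Ly6e, Samhd1 and Xaf1 (r from 0.99 down to 0.98), and those closest to Irf9 were Xaf1, Gm6548, Oas2, Oas1g and Irgm2 (r = 0.99 for each). Closest to Stat2 were Fbxw17, Fam189b, Tapbp, Sdc3 and Parp10 (r from 0.99 down to 0.98). Closest to Irf8 were Esyt1, Mgst1, Rnf130, Pik3cg and Lamp1 (r from 0.99 down to 0.98). None of the genes closest to Irf8, and none of those closest to Stat2, is on the list of interferon-stimulated genes. That list holds Oasl2, Ly6e and Xaf1 of those closest to Irf7, and Xaf1, Oas2 and Oas1g of those closest to Irf9. All r values are over the 10 group means.

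The interferon genes themselves were at the limit of detection. Of 10 ligand genes, Ifnb1 had 5 counts over 4 libraries and Ifnk 4 counts over 3 libraries; Ifna1, Ifna2, Ifna4, Ifna5, Ifne, Ifng, Ifnl2 and Ifnl3 had 0 counts in all 30, which allows each up to 0.00579 CPM of the library total over all libraries (counting error only). No difference between groups was detectable in them at this depth. Listed markers of dendritic cells and B cells ranged from near 0 to abundant. Among those of dendritic cells, Siglech (plasmacytoid dendritic cells) had 4 counts over 3 libraries, Flt3 62 over 18 and Clec9a 173 over 23. Xcr1 had 924 counts over 30 libraries and Zbtb46 1173 over 30. Itgax had 38097 counts and Bst2 111654, the last also an interferon-stimulated gene. Of the B cell genes, Ms4a1 had 2 counts and Ebf1 2501 over 30 libraries. T and NK cell markers (8 genes) summed to 0.598 to 4.11 CPM and B and plasma cell markers (8 genes) to 0.931 to 13.4 CPM across libraries. Summed neutrophil markers (8 genes) were highest in 1-month KO, at 73.9 to 78.0 CPM, against 1.499 to 39.0 CPM in the other groups. S100a9, Mpo and Ly6g had 0 counts in 1-month KO, so that sum rests on the other listed genes.

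**Figure D4:**
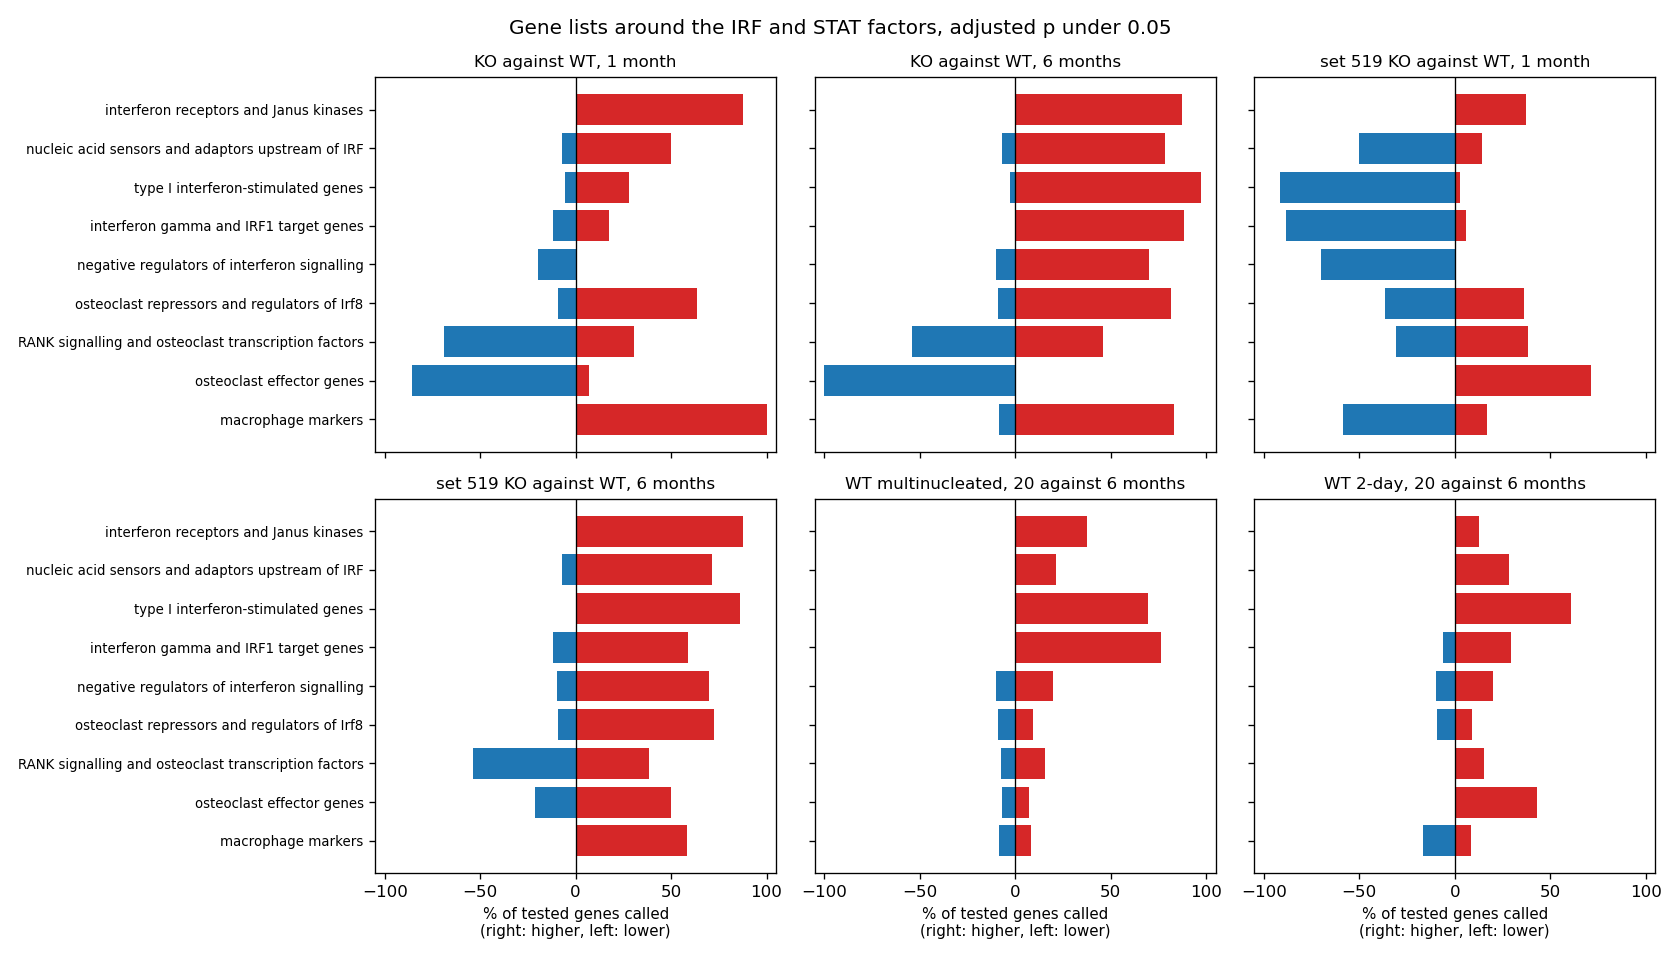
Share of the tested genes of 9 lists (rows) called higher (red, to the right) or lower (blue, to the left) at an adjusted p under 0.05, in percent, in 6 comparisons (panels). The list of 36 type I interferon-stimulated genes has 35 called higher for KO at 6 months, 33 lower for 1-month KO of set 519, and 25 and 22 higher at 20 months in the 2 stages of WT culture.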

How the data were processed

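Polyadenylated RNA was sequenced on an Illumina NovaSeq instrument, per the labels' protocols. Each library's deposited file gives raw counts of fragments for every gene. Per the file headers, featureCounts 1.6.0 counted fragments aligned by STAR over Ensembl 88 gene models of GRCm38; the submitters' processing notes name HTSeq and mm10 instead, and the headers were followed. No strand or multimapping option is recorded. Of 50686 gene identifiers 99.39% matched a symbol.

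From these, edgeR 4.0.16 (with limma 3.58.1 in R 4.3.3) computed TMM factors and fitted all 30 libraries in 1 quasi-likelihood model that gave each of the 10 groups its own coefficient. filterByExpr kept 15310 genes and removed 35376; the 9 members were kept. The common biological coefficient of variation was 0.061. P-values were Benjamini-Hochberg adjusted over all genes tested, with a threshold of 0.05, after the procedure was tested on simulated counts. Zero counts are read as up to 3 counts. Promoters are from RefSeq. Alternatives were DESeq2 1.42.0, other scalings, no filter, fits of the compared groups alone, a replicate block, leaving out each library and thinned counts.

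All members are named; from other lists, at most the 2 called genes with the largest log2 change and at least 5 CPM, with Ctsk, Acp5, Adgre1, Nfatc1, Prdm1 and Bcl6 as checks; some further genes are not reported here. For each of Irf8, Irf7, Irf9 and Stat2, the 5 genes closest in group means are named. The members and lists were chosen with earlier results of these data known. Of the 15 sensor genes listed, 14 matched a symbol in the files.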

Additional observations from a re-analysis of the deposited data

Results flagged for a closer look

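For 7 members the change from 1 to 6 months differed between KO and WT cultures in the test of the difference (edgeR, adjusted over all genes): by log2 3.68 ± 0.19 for Irf7 (adjusted p = 7.8e-17), 2.07 ± 0.12 for Stat2 (1.8e-15), 1.43 ± 0.11 for Irf9 (1.6e-12), 0.74 ± 0.07 for Irf5 (4.2e-10), 0.71 ± 0.10 for Irf1 (1.9e-07), 0.50 ± 0.09 for Irf8 (1.1e-05) and 0.48 ± 0.10 for Irf3 (0.00024), all higher in KO. The WT side of this test rests on the unprefixed 1-month group. Beside set D1, an untested pairing, Irf7, Irf9 and Irf5 were higher in multinucleated 6-month WT instead. Irf8 was lower there (25.7 against 41.4 CPM), where KO went from 110.0 CPM at 1 month to 62.95 CPM at 6 months. The test of the difference was not run with set D1 as the 1-month WT group. For Irf8 and the other 6 members, the direction higher in KO is thus given for the unprefixed group alone. For Irf1 the change from 6 to 20 months differed between multinucleated and 2-day WT cultures by log2 0.51 ± 0.10 (adjusted p = 0.00051).

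The change from 1 to 6 months in KO differed between set 519 and the unprefixed libraries for Irf2 (log2 -0.55 ± 0.10, adjusted p = 9.3e-05), Irf5 (-0.30 ± 0.08, 0.0057), Stat2 (-0.39 ± 0.12, 0.030) and Irf3 (-0.33 ± 0.11, 0.045), each lower in set 519. The Irf3 call was lost without unprefixed 1-month replicates 1 or 2, unprefixed 6-month replicates 1, 2 or 3, set 519 1-month replicates 2 or 4, or set 519 6-month replicates 3 or 4 (adjusted p = 0.055 to 0.13). The Stat2 call was lost without unprefixed 1-month replicate 1, unprefixed 6-month replicate 3, set 519 1-month replicates 3 or 4, or set 519 6-month replicates 2 or 4 (0.058 to 0.092).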

How the results depend on the processing

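Over 2119 values of a member in a comparison under an alternative setting, 1981 kept their direction and their side of the threshold, 66 were no longer called, 22 became called, and 50 changed sign while called in neither fit; no called value changed sign. Sign changes outside Irf4 stayed at or under 0.0947 in log2 size. On the log2 scale, with adjusted p of 0.38 or more throughout, the sign changes were as follows. Irf9 (KO against WT, 1 month, -0.0137 as reported) was 0.0014 with DESeq2's factors, 0.006 with upper-quartile scaling, 0.0056 with no filter, 0.0013 with DESeq2, 0.0473 with thinning and ran from -0.0545 to 0.0259 leaving out each library. Irf4 (KO against WT, 1 month, -0.3585 as reported) ran from -1.1461 to 0.1891 leaving out each library. Irf3 (set 519 KO against WT, 6 months, -0.0266 as reported) ran from -0.0914 to 0.0947 leaving out each library. Irf4 (set 519 KO against WT, 6 months, 0.4124 as reported) ran from -0.5335 to 0.7898 leaving out each library. Irf2 (WT multinucleated, 6 against 1 month, -0.0634 as reported) ran from -0.1528 to 0.0162 leaving out each library. Irf4 (WT multinucleated, 6 against 1 month, -0.2217 as reported) ran from -0.4806 to 0.3218 leaving out each library. Irf3 (WT multinucleated, 20 against 6 months, -0.0492 as reported) was 0.0733 with thinning and ran from -0.1117 to 0.0445 leaving out each library. Irf3 (multinucleated against 2-day, 6-month WT, 0.0325 as reported) was -0.0079 with thinning and ran from -0.0489 to 0.0938 leaving out each library. Irf4 (multinucleated against 2-day, 20-month WT, -0.1869 as reported) ran from -0.4967 to 0.3488 leaving out each library. Irf1 (set 519 KO 6 against 1 month, 0.0958 as reported) was -0.035 with thinning. Irf1 (set D1 WT against WT, 1 month, -0.0332 as reported) was 0.0236 with DESeq2's factors, 0.0644 with upper-quartile scaling, 0.024 with DESeq2, 0.0913 with thinning and ran from -0.0891 to 0.0122 leaving out each library. Irf3 (set 519 KO against KO, 1 month, -0.0137 as reported) was 0.033 with DESeq2's factors, 0.0604 with upper-quartile scaling, 0.0443 with the compared groups alone, 0.0326 with DESeq2, 0.0803 with thinning and ran from -0.0838 to 0.0532 leaving out each library. Irf4 (set 519 KO against KO, 6 months, 0.1131 as reported) ran from -0.8446 to 0.4786 leaving out each library. Irf2 (genotype by age, -0.072 as reported) was 0.009 with thinning and ran from -0.151 to 0.0183 leaving out each library. Irf5 (maturation by age, -0.0245 as reported) was 0.004 with the replicate block and ran from -0.0653 to 0.0171 leaving out each library. Irf8 (maturation by age, 0.0078 as reported) was -0.0037 with the replicate block, -0.0087 with the compared groups alone, -0.0146 with thinning and ran from -0.0302 to 0.0348 leaving out each library.

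Thinning all libraries to the lowest total, an alternative chosen after seeing the data, took the members called from 3 to 1 in 2-day WT of 20 against 6 months, from 5 to 3 between stages at 6 months, and from 4 to 1 for the KO age change between sets. Leaving out 1 library gave 3 to 5 members between stages at 6 months and again at 20 months, and 2 to 4 for the KO age change between sets. Same-numbered libraries did not deviate together in most comparisons (correlations from -0.1522 to 0.2615), so the titles' numbers were not taken to pair them; the replicate block gave 2 members instead of 4 for the KO age change between sets, and took Irf7 in KO of 6 against 1 month to an adjusted p of 0.052 and Irf9 in 2-day WT of 20 against 6 months to 0.051. In the 7 groups outside the 2 sets, r was 0.8735 for Irf8 with Irf7 and 0.9032 with Irf9. Over all genes, thinning lowered the calls from 6340 to 3924 for KO against WT at 1 month, from 2188 to 993 and 2880 to 1543 for 20 against 6 months (multinucleated and 2-day), from 5742 to 3408 for KO age, from 7443 to 4900 for genotype by age, from 1896 to 902 for stage by age and from 2278 to 1322 for the KO age change between sets. Fitting only the compared groups raised them to 3332 for multinucleated 20 against 6 months and to 2868 for stage by age. Upper-quartile scaling took the share called higher from 61.1% to 46.6% for the KO age change between sets. Depth limits set 519 most, since its lowest library held 4269798 counts.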
